A study of Mus musculus with 8 samples.

Results

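The regions described here are the open chromatin regions at the promoters of long noncoding RNA (lncRNA) genes in mouse hepatocytes. To find them, each of 8 deposited lists of accessible intervals was collapsed to distinct intervals, the 50000 intervals with the highest −log10 p were kept per list, and the kept intervals were merged into 73711 regions. A region was a member if it lay within 1 kb of the transcription start site (TSS) of an lncRNA gene of the GENCODE annotation of mm10 and more than 1 kb from every protein-coding TSS. There were 1579 such regions, 2.14% of all regions, and they lay at the promoters of 1494 of 9793 annotated lncRNA genes (15.3%). Of the remaining regions, 13212 lay at single coding promoters, 1370 at bidirectional coding promoters and 57550 elsewhere. A further group of lncRNA genes shares its promoter with a coding gene and is left out by the rule.

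The assay was ATAC-Seq, in which the Tn5 transposase cuts and tags open DNA, on nuclei of hepatocytes isolated by collagenase perfusion from C57BL/6 mice 10 to 12 weeks old on a normal diet. There were 4 groups of 2 libraries: undamaged liver (0 h) and liver at 48 h, 72 h and 96 h after partial hepatectomy (PHx), the surgical removal of most of the liver, after which the remaining lobes regrow. No group carried a transgene or a deletion, and the labels do not say which animal each library came from, so p-values measure the spread between libraries. In such bulk samples, fewer cells with an open promoter and less open DNA per cell cannot be told apart.

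LncRNAs are transcribed by RNA polymerase II, and many are capped, spliced and polyadenylated like mRNAs but are not translated into proteins. Some act in the nucleus, as scaffolds of nuclear bodies or on the expression of genes next to them. Others are host transcripts whose introns are processed into small nucleolar RNAs or microRNAs, and for most the function is not known. A promoter rich in CpG dinucleotides is typical of broadly transcribed genes, whereas CpG-poor promoters are more often tissue-restricted.

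The lists held between 105206 and 154577 distinct intervals, and the median fold enrichment of the 50000 kept ranged from 6.70 to 9.35. The weakest kept interval had a −log10 p of 15.2 and 9.96 in the 0 h libraries, 8.05 and 8.62 at 48 h, then 14.8 and 14.0 at 72 h, then 14.5 and 8.29 at 96 h, so equal ranks are not equal signal. The read depth is unknown, and the second 72 h library carries a different sequencing run name from the other 7. Promoters of hepatocyte markers were present among the kept intervals in 7 and 9 of 10 cases at 0 h, 4 and 5 at 48 h, 5 in each 72 h library and 7 in each 96 h library, and the part of this course in the results below was not tested. Of the lists for other liver cells, Kupffer cell markers (0 of 7) and lymphocyte markers (0 of 5) were present in no library, endothelial markers were absent except for 1 of 6 in the second 72 h library, 3 of 7 stellate cell markers were present in every library but never Des, Col1a2, Dcn or Acta2, and 2 to 4 of 6 cholangiocyte markers were present but never Krt19 or Krt7.

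The sequences of 8 members on which the results below turn are shown first, as the 200 bases around the strongest summit, read 5′ to 3′ on the strand of the lncRNA gene (build GRCm38/mm10). They are Gm26654, 2310069B03Rik and Gm26691, which had higher values after PHx, Gm39556 and Gm27216, which had lower values at 48 h (none past the test), Gm13274, which had the best worst rank over the 8 libraries, Snhg12, a snoRNA host, and Airn, an imprinted gene. Capitals mark matches to any of 12 motifs, which are spelled out below. The Gm26691 window is the most GC-rich, at 81% GC with 31 CG dinucleotides, and Gm27216 holds only 2 CG dinucleotides in a window of 49.5% GC.
Gm26654, chr3:96402228-96402427, plus strand: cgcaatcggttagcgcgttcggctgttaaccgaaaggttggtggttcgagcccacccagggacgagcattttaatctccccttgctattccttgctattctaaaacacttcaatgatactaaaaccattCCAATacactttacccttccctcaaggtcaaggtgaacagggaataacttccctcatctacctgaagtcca
2310069B03Rik, chr6:82881836-82882035, minus strand: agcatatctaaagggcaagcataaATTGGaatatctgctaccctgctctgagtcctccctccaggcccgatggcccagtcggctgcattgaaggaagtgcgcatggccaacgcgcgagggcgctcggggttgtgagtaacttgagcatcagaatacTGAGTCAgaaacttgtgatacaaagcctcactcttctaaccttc
Gm26691, chr3:134240004-134240203, minus strand: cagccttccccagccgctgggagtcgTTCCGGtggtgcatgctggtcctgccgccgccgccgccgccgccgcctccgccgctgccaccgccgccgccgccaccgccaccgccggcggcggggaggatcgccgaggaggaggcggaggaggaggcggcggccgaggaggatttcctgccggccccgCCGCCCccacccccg
Gm39556, chr15:74930486-74930685, plus strand: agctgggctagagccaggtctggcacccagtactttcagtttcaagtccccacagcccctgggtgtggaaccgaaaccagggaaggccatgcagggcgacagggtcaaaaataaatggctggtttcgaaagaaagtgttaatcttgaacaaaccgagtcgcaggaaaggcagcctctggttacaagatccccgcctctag
Gm27216, chr9:83254467-83254666, minus strand: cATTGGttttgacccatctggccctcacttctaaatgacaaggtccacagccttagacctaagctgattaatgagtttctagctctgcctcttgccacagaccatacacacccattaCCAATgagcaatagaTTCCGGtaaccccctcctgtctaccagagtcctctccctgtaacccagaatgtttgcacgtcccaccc
Gm13274, chr4:88757592-88757791, minus strand: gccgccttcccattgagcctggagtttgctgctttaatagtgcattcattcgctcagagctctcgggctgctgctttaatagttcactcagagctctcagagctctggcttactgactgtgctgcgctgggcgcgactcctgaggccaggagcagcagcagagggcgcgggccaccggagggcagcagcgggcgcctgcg
Snhg12, chr4:132308514-132308713, plus strand: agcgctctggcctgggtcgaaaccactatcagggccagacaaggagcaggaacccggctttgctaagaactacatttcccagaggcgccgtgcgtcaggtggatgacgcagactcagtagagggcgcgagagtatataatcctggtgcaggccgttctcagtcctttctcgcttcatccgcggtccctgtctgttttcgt
Airn, chr17:12741228-12741427, plus strand: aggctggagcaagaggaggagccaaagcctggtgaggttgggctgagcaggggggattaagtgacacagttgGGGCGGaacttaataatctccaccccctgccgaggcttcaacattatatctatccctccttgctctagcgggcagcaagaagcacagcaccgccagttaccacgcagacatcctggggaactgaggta
In Gm26654 the capitals are 1 CCAAT match, in 2310069B03Rik 1 CCAAT and 1 TGANTCA match, in Gm26691 1 CCGGAA and 1 GGGCGG match, in Gm27216 2 CCAAT matches and 1 CCGGAA match, and in Airn 1 GGGCGG match, on either strand. The windows of Gm39556, Gm13274 and Snhg12 hold no match to these letters.

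Most members belong to genes with no name beyond a model number. The lncRNA gene nearest to the summit was annotated as a lincRNA, a transcript between coding genes, in 910 members (57.6%), as antisense to a coding gene in 497 (31.5%), as a processed_transcript in 165 (10.4%) and as a bidirectional promoter lncRNA in 7 (0.443%). Only 119 members had a gene with a descriptive symbol. In 67 members 2 or more lncRNA genes shared the region, and 146 lncRNA genes had 2 or more member regions. The nearest coding TSS lay at a median of 27163 bp, 250 members (15.8%) had one within 5 kb and 274 had none within 100 kb. A coding gene body covered 475 members (30.1%).

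Summits were most frequent just upstream of the start sites. The summit lay a median of 383 bp from the TSS, within 100 bp in 397 members (25.1%), and on the upstream side in 57.8%, as the histogram of summit positions shows. The TSS itself lay inside the region in 837 members, of which 54.6% were present in all 8 lists. Members whose edge was up to 500 bp from the TSS numbered 384 (34.1% in all 8) and those farther away numbered 358 (34.6%). Just outside the limit, 744 regions had an lncRNA TSS between 1 and 2 kb away, and 31.3% of them were in all 8 lists.

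Members were poorer in CpG than coding promoters. Their median width was 721 bp, against 1031 bp at single coding promoters and 578 bp at other regions, and the median GC content was 50.8%, 62.0% and 46.8%, respectively. A 500 bp window around the summit met the CpG-rich criterion (GC of at least 50% and a CpG observed/expected ratio of at least 0.6) in 264 members, or 16.7%, compared with 67.4% of single coding promoters, 82.0% of bidirectional promoters and 2.33% of other regions. The normalized fold enrichment, which is the peak caller's signal over local background after quantile normalization between libraries, had a median of 7.53 over members, 9.42 over single coding promoters and 7.04 over other regions. Among the members the median was 8.83 for the CpG-rich and 7.22 for the CpG-poor.

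Accessibility at lncRNA promoters was less regular across libraries than at coding promoters and more regular than elsewhere. A region was counted as present in a library when one of the 50000 kept intervals overlapped it. In all 8 libraries, 712 members (45.1%) were present, compared with 69.4% of single coding promoters, 81.6% of bidirectional promoters and 30.4% of other regions, while 190 members (12.0%) were present in 1 library alone. By library, 72.2% and 72.6% of members were present at 0 h, 70.0% and 71.9% at 48 h, later 70.5% and 72.3% at 72 h and lastly 72.1% and 70.9% at 96 h. The share was below that of single coding promoters in 8 of 8 libraries, by 12.8 percentage points on average (range 12.0 to 14.7), and above that of other regions by 10.5 points (9.04 to 11.4). Both differences had p = 0.00781 in a two-sided exact permutation test over the sign patterns of the 8 libraries, the smallest p that test allows, and p = 0.0107 after adjustment over 15 comparisons of this kind.

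**Figure D1:**
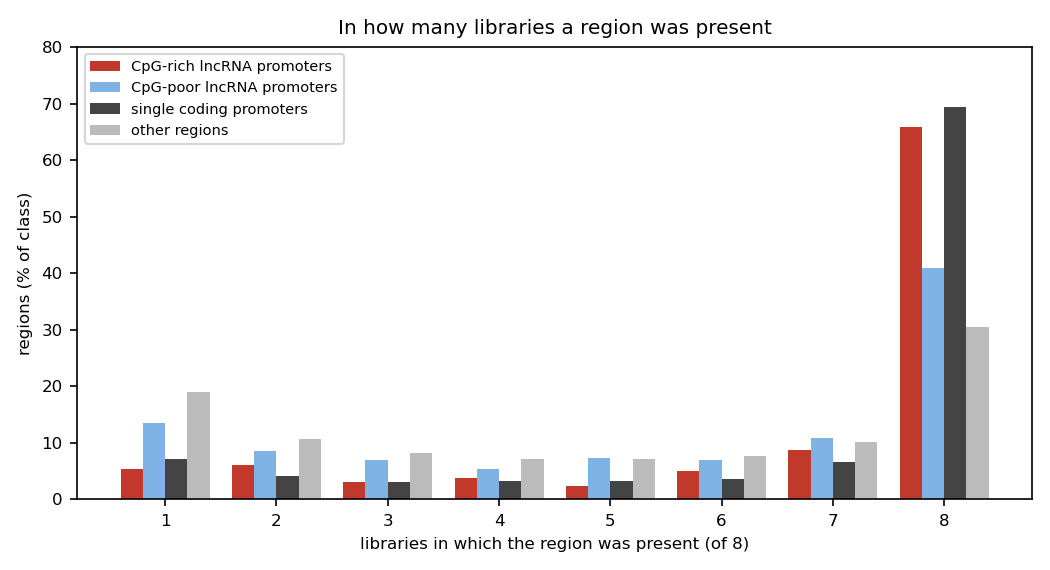
Share of regions (y axis, percent) present in 1 to 8 libraries (x axis) for CpG-rich lncRNA promoters, CpG-poor lncRNA promoters, single coding promoters and other regions. The bars at 8 libraries stand at 65.9% for CpG-rich and 40.9% for CpG-poor lncRNA promoters. Both lie between 69.4% for single coding promoters and 30.4% for other regions.

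The gap to coding promoters was smaller within a CpG class. CpG-rich members were present more often than CpG-poor members in 8 of 8 libraries, by 14.8 percentage points (range 9.73 to 18.8, exact permutation p = 0.00781, adjusted p = 0.0107), and 174 of 264 (65.9%) were in all 8 lists, against 538 of 1315 (40.9%). Compared with single coding promoters of the same CpG class, CpG-rich members were lower by 7.38 points (5.23 to 9.52, exact permutation p = 0.00781, adjusted p = 0.0107). CpG-poor members were within 1.18 points of CpG-poor coding promoters, lower in 7 of 8 libraries, with differences from −4.00 to 0.797 points and an exact permutation p of 0.0625. In both CpG classes members exceeded the other regions, by 6.79 points in the rich and 8.43 points in the poor class, each in 8 of 8 libraries (exact permutation p = 0.00781).

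Members also differed among themselves. Promoters of lincRNAs were present more often than those of antisense RNAs in 8 of 8 libraries, by 5.85 percentage points, and processed_transcript promoters exceeded antisense promoters by 6.13 points (each exact permutation p = 0.00781). Promoters of lincRNAs and processed_transcripts differed by 0.278 points (exact permutation p = 0.812). Members inside a coding gene body were lower than members outside by 7.58 points (5.64 to 9.44), and those with a summit within 100 bp of the TSS were higher than those beyond 500 bp by 6.39 points (5.35 to 8.22), each in 8 of 8 libraries (exact permutation p = 0.00781, adjusted p = 0.0107). Members with a coding TSS within 5 kb were lower by 5.42 points than those beyond 100 kb from one, in 6 of 8 libraries, which did not hold after adjustment (exact permutation p = 0.0469, adjusted p = 0.0541). CpG-rich regions made up 14.9% of lincRNA, 13.7% of antisense and 35.2% of processed_transcript promoters. They made up 24.4% of members within 100 bp and 9.76% beyond 500 bp, but 16.6% inside and 16.8% outside coding genes. With a coding TSS within 5 kb they made up 24.0%, and beyond 100 kb 9.85%. The part of CpG content in these differences was not tested.

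**Figure D2:**
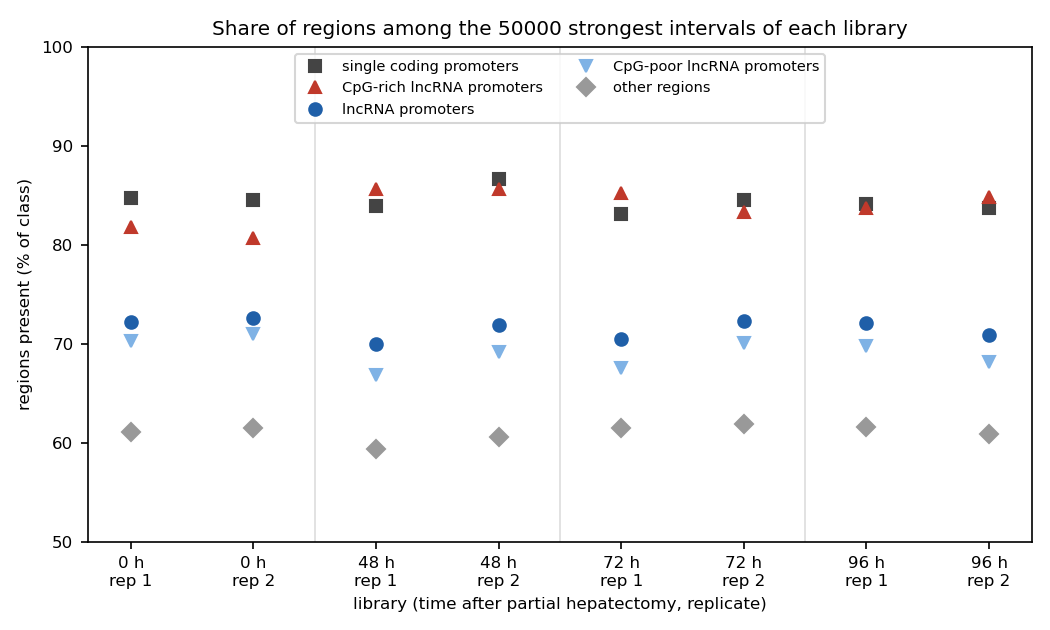
Share of regions present (y axis, percent, starting at 50) in each of the 8 libraries (x axis, by time after PHx) for all, CpG-rich and CpG-poor lncRNA promoters, single coding promoters and other regions, 1 point per library. CpG-rich lncRNA promoters lie at 80.7% to 81.8% at 0 h and at 83.3% to 85.6% in the 6 libraries after PHx.

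Across the time course the differences in the share present did not hold after adjustment, over all members or in either CpG class. With 24 comparisons, one at the smallest p that 28 splits allow cannot pass unless most of the others reach it too. Over all members it averaged 72.4% in the 2 libraries of 0 h and 71.3% in the 6 libraries after PHx, a difference of −1.10 percentage points (exact permutation p = 0.179). CpG-rich members were present at 81.8% and 80.7% at 0 h, 85.6% in both 48 h libraries, later 85.2% and 83.3% at 72 h and lastly 83.7% and 84.8% at 96 h, a difference of 3.47 points with no overlap between 0 h and PHx libraries (exact permutation p = 0.0357, adjusted p = 0.214). CpG-poor members were present at 70.3% and 71.0% at 0 h, 66.8% and 69.2% at 48 h, then 67.5% and 70.1% at 72 h, then 69.7% and 68.1% at 96 h, a difference of −2.02 points (exact permutation p = 0.107, adjusted p = 0.286).

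The gap between the CpG-rich and CpG-poor members, examined after the data were seen, was 9.73 to 11.6 points at 0 h and 13.2 to 18.8 points after PHx. Its difference of 5.49 points had p = 0.0357 in the exact permutation test, the smallest p that the 28 splits of 2 against 6 libraries allow, and p = 0.214 after adjustment over 24 comparisons. At single coding promoters the same gap was 18.4 points at 0 h and 21.8 after PHx (difference 3.36, exact permutation p = 0.0357, adjusted p = 0.214), and at other regions 12.6 and 17.7. The pattern is therefore not particular to lncRNA promoters in these lists. It also turned with the number of intervals kept: with all deposited intervals the members' difference was −3.74 points, also with an exact permutation p of 0.0357, and with the 25000 strongest it was 0.51 (exact permutation p = 0.893).

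Few members switched between 0 h and a later time. A member was called gained when both libraries of the later time had it and neither 0 h library did, and lost in the opposite case. At 48 h 36 members (2.28%) were gained, where 2.64% of all regions were, and 46 (2.91%) were lost, where 3.5% of all regions were. At 72 h 28 members (1.77%) were gained against 2.88% of all regions and 47 (2.98%) lost against 2.74%. At 96 h 30 (1.90%) were gained against 2.23% and 39 (2.47%) lost against 2.43%. Members were thus close to or below the share over all regions in each of the 6 counts, and at single coding promoters 1.68% were gained and 1.51% lost at 48 h. With only 1 of the libraries at a time in use the counts were larger, between 60 and 101 members gained and between 72 and 130 lost, and the shares of all regions were likewise larger, from 4.17% to 8.11% gained and from 5.45% to 8.86% lost.

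The comparisons of 48 h, 72 h and 96 h share the 0 h libraries, so recurrence is given as counts only. Of the 36 members gained at 48 h, 12 were also gained at 72 h, 12 at 96 h and 6 at all 3 times, and 5 were CpG-rich. Of the 46 lost at 48 h, 14 were also lost at 72 h, 15 at 96 h and 8 at all 3 times, and 2 were CpG-rich. A lost call seldom meant that no interval was there: all but 2 of the 46 had a weaker interval in at least 1 of the full 48 h lists, and each of the 36 gained members had one in at least 1 full 0 h list. Members found at 0 h in both libraries but never after PHx numbered 8 (0.507%, against 0.547% of all regions), and those found in the 6 libraries after PHx but never at 0 h numbered 6 (0.380%, against 0.347%).

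Of the gained members, Gm26654 on chromosome 3 (96401599 to 96402511) ranked highest by the weaker 48 h library. It is a lincRNA of unknown function that shares its promoter region with the lncRNA 4930477E14Rik, and the nearest coding TSS, of BC107364, lies 49795 bp away. Its normalized fold enrichment was 4.17 and 3.33 at 0 h, 10.6 and 9.97 at 48 h, later 7.71 and 5.41 at 72 h and lastly 6.03 and 4.76 at 96 h. The 48 h libraries were the highest, and every library after PHx was above both 0 h libraries. Its choice by presence at 48 h but not at 0 h favours this. Of the other gained members, Gm11915, a CpG-rich promoter inside the ephrin receptor gene Epha7, had 3.57 and 3.23 at 0 h against 6.63 and 5.38 at 48 h, and 4931406G06Rik was also gained.

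Gm26691 and 2310069B03Rik were present in each of the 6 libraries after PHx but not at 0 h. Gm26691 is a CpG-rich promoter inside Cxxc4, which encodes an inhibitor of Wnt signalling that binds unmethylated CpG. Its normalized fold enrichment was 4.75 and 3.82 at 0 h, 7.84 and 8.68 at 48 h, then 6.09 and 7.31 at 72 h, then 6.36 and 6.83 at 96 h. At 2310069B03Rik on chromosome 6 (82881618 to 82882241) it was 3.89 and 3.33 at 0 h, 11.7 and 6.05 at 48 h, later 11.7 and 13.6 at 72 h and lastly 13.5 and 10.4 at 96 h. The groups did not overlap in either member, which the choice of both by presence favours, and at 2310069B03Rik the 48 h libraries were the most unlike each other. Others with this pattern included AC108409.1, Gm5089 and Tvp23bos, the RNA opposite Tvp23b, at 5.13 and 3.90 at 0 h and between 6.42 and 8.63 after PHx.

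Among members lost at 48 h, Gm39556, near the surface antigen gene Ly6e, had 8.92 and 10.6 at 0 h, 4.58 and 4.54 at 48 h, then 7.23 and 6.86 at 72 h, then 7.19 and 5.22 at 96 h. Gm19705 had 8.47 and 10.4 at 0 h, 4.63 and 4.75 at 48 h, later 8.86 and 6.88 at 72 h and lastly 9.72 and 5.38 at 96 h. Both were lowest at 48 h, as their choice favours, and at both the later libraries lay between or overlapped the 0 h values. Gm45609, near Ahcy, the gene of the enzyme that hydrolyses S-adenosylhomocysteine, had 5.90 and 7.58 at 0 h against 4.39 and 4.04 at 48 h. Gm33524 had 6.24 and 7.88 at 0 h against 3.78 and 4.49 at 48 h, and Gm6787, a CpG-rich promoter, was lost at both 48 h and 72 h.

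AC123853.1, near the stearoyl-CoA desaturase gene Scd4, was gained at 72 h, with 3.70 and 2.91 at 0 h, 4.58 and 6.09 at 48 h, then 7.69 and 7.11 at 72 h, then 9.33 and 6.48 at 96 h. Its 4 libraries at 72 h and 96 h were all above those of 0 h and 48 h. Its choice by presence at 72 h but not at 0 h favours part of this. Gm26677 was lost at 96 h, with 9.15 and 8.33 at 0 h against 5.62 and 3.84 at 96 h, and Gm20559 and Gm16116 were the other losses named at 72 h and 96 h. The members present at 0 h alone included BC049987, A630001O12Rik, Gm12744, 2010310C07Rik and 1 of the regions of Mir22hg, the host gene of a microRNA.

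**Figure D3:**
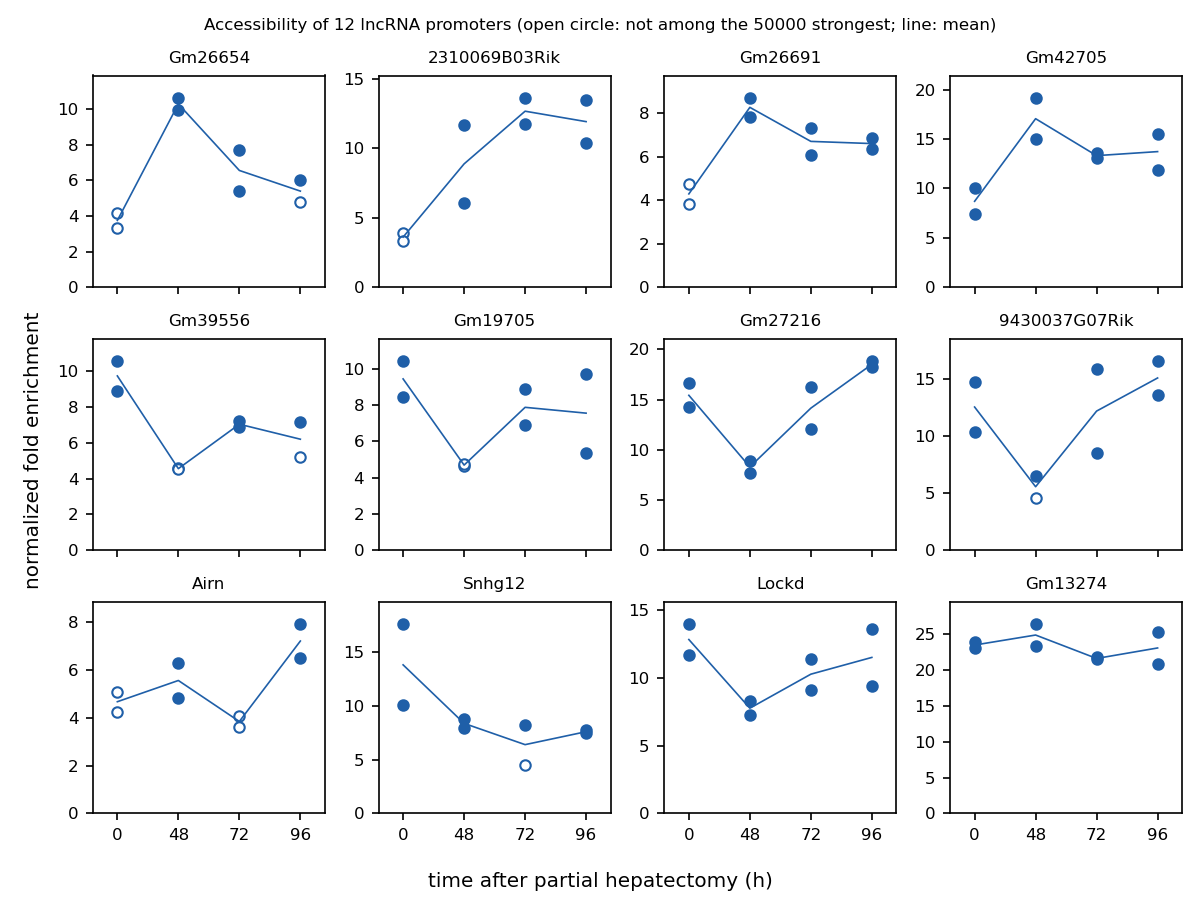
Normalized fold enrichment (y axis) by time after PHx (x axis, h) for 12 named members, 1 point per library, open where the region was not among the 50000 strongest, and a line through the mean of the 2 libraries at each time. Gm26654 stands at 10.6 and 9.97 at 48 h against 4.17 and 3.33 at 0 h, and Gm27216 at 7.72 and 8.89 against 16.6 and 14.2.

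No member passed the test on signal level, which does not show that levels did not differ. Of the 1579 members, 1275 (80.7%) had an interval in all full lists and entered a limma fit of log2 normalized fold enrichment over 55122 regions. The fit called 0 members at 48 h, 72 h and 96 h at an adjusted p under 0.05, and 0% of all regions at each time. At an unadjusted p under 0.05 there were 106 members (8.31%) at 48 h against 10.3% of all regions, 88 (6.90%) at 72 h against 6.37% and 68 (5.33%) at 96 h against 5.74%. Higher and lower members numbered 65 and 41, 54 and 34, and 38 and 30, respectively, where over all regions they were 2761 and 2897, 2093 and 1417, and 1709 and 1454. The smallest adjusted p of a member in limma was 0.206, 0.348 and 0.47. The median log2 difference was 0.03 at 48 h, −0.02 at 72 h and −0.0017 at 96 h, with a median SE of 0.30. With the −log10 p in place of the fold enrichment, limma called 1 member at 48 h, Gm26654, where it called 21 of all 55122 regions, and 1 at 72 h, 2310069B03Rik, where it called 2 of all.

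Among the 5 members with the smallest p for a higher level at 48 h, Gm26654 differed from 0 h by 1.47 ± 0.31 on the log2 scale (SE, limma adjusted p = 0.206) and 2310069B03Rik by 1.23, or 0.77 without the first and 1.72 without the second 48 h library. Gm42705 had 10.0 and 7.37 at 0 h against 15.0 and 19.2 at 48 h (0.98 ± 0.23, limma adjusted p = 0.213). Gm49595 had 8.83 and 8.53 at 0 h against 15.4 and 14.7 at 48 h, a log2 difference of 0.79. Gm45892 had 6.42 and 5.82 at 0 h against 13.2 and 12.5 at 48 h (1.08 ± 0.28). When regions were merged anew without either 48 h library, this region fell into 2 regions with other bounds, and the one nearer the TSS had 0.15 and 0.38, which are not values of the same interval. In all 5 both 48 h libraries were above both 0 h libraries, as their choice favours. At 72 h and 96 h, 2310069B03Rik remained apart from 0 h, by 1.81 and 1.72 (limma adjusted p = 0.348 and 0.47).

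In each of the 5 members with the smallest p for a lower level at 48 h, both 96 h libraries were above both 48 h libraries, which their choice by low 48 h values favours. Gm27216 had 16.6 and 14.2 at 0 h, 7.72 and 8.89 at 48 h, later 16.3 and 12.1 at 72 h and lastly 18.8 and 18.2 at 96 h (48 h against 0 h −0.89 ± 0.21, limma adjusted p = 0.216). 9430037G07Rik had 10.3 and 14.7 at 0 h, 6.51 and 4.61 at 48 h, then 8.49 and 15.9 at 72 h, then 13.6 and 16.5 at 96 h. Their 48 h libraries were the lowest, and the 96 h libraries overlapped or exceeded those of 0 h. Gm11513, inside Pdk2, a kinase that inhibits pyruvate dehydrogenase, had 7.38 and 12.2 at 0 h, 3.26 and 3.58 at 48 h, later 5.32 and 4.38 at 72 h and lastly 3.91 and 7.30 at 96 h (−1.48 ± 0.35). Gm26838 had 13.7 and 11.3 at 0 h, 5.56 and 6.83 at 48 h, then 12.1 and 8.44 at 72 h, then 11.9 and 11.2 at 96 h. At Gm39556 the log2 difference was −1.09 ± 0.30.

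By the worst of the 8 within-library ranks, the highest were Gm13274, Gm38399, Gm26801, Gm40190 and Gm10010, all CpG-rich. Gm13274 ranked between 106 and 499 of 50000 in every library, with a normalized fold enrichment of 20.8 to 26.4.

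Named lncRNAs are grouped by role in what follows. Of the lncRNA genes that host small nucleolar RNAs, which guide the modification of ribosomal RNA, 10 of 17 were members, with 11 regions, of which 9 were in all 8 lists and 10 were CpG-rich. Their median log2 difference at 48 h was −0.12, and 3 of 11 were higher, beside a median of 0.03 over all members tested. Snhg12 had 10.0 and 17.5 at 0 h, 7.90 and 8.81 at 48 h, later 8.24 and 4.52 at 72 h and lastly 7.73 and 7.44 at 96 h, so that all 6 PHx libraries were below both 0 h libraries (72 h −1.12, limma adjusted p = 0.537). Snhg3 had 8.50 and 9.67 at 0 h, 6.17 and 6.46 at 48 h, then 8.05 and 6.58 at 72 h, then 10.4 and 12.6 at 96 h, lowest at 48 h and highest at 96 h. Snhg6 had 13.2 and 14.4 at 0 h against 7.83 and 13.1 at 48 h, and Snhg8 had 8.42 and 10.1 at 0 h against 7.80 and 6.66 at 48 h. Gas5, Snhg1, Snhg9, Snhg10, Snhg18 and Zfas1 had regions only within 1 kb of a coding TSS and are not members.

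The list of lncRNAs tied to growth, p53 and the cell cycle held 9 genes, of which 8 were members with 12 regions, 8 of them in all 8 lists. Lockd, downstream of the cell cycle inhibitor gene Cdkn1b at 7712 bp from its TSS, had 11.7 and 13.9 at 0 h, 7.23 and 8.29 at 48 h, later 11.4 and 9.12 at 72 h and lastly 9.42 and 13.6 at 96 h. Both 48 h libraries were below all others, with a log2 difference of −0.72 ± 0.26 at 48 h (limma adjusted p = 0.353). Pvt1, the neighbour of Myc, had 4.57 and 6.48 at 0 h, 4.23 and 8.04 at 48 h, then 7.29 and 6.79 at 72 h, then 4.34 and 3.60 at 96 h, with overlap of 0 h and 48 h. Crnde, next to the homeobox gene Irx5, stayed between 10.7 and 15.2 in all libraries.

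Of the microRNA host genes 7 of 14 were members, with 13 regions, 8 of them in all 8 lists. The strongest of the 3 regions of Dleu2 had 8.92 and 13.1 at 0 h, 9.96 and 8.67 at 48 h, later 8.16 and 7.66 at 72 h and lastly 9.65 and 10.0 at 96 h. Mir670hg had 7.22 and 4.91 at 0 h, 9.25 and 6.73 at 48 h, then 9.91 and 10.2 at 72 h, then 7.82 and 8.81 at 96 h (72 h 0.76, limma adjusted p = 0.686). Both regions of Mir99ahg were in all 8 lists. Of 4 lncRNAs listed for immune or stromal cells, Mir155hg, the host of a microRNA of activated leukocytes, was the 1 member, in all 8 lists at 7.69 to 13.7.

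Nuclear lncRNAs with known scaffold roles were members in 6 of 9 cases, with 8 regions and a median log2 difference of −0.03 at 48 h. Malat1, a nuclear speckle RNA, and Firre, which organizes chromosomal contacts in the nucleus, each had a region in all 8 lists. Neat1, the scaffold of paraspeckles, had a region in the kept lists of both 96 h libraries alone, with 1.77 and 2.70 there and between 1.61 and 2.01 in the other 6. Ftx, an lncRNA of the X-inactivation centre, had 8.83 and 11.3 at 0 h, 8.45 and 7.27 at 48 h, later 7.66 and 6.62 at 72 h and lastly 8.49 and 8.50 at 96 h. Tug1 lay within 1 kb of a coding TSS.

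Of 9 imprinted lncRNAs, expressed from 1 parental allele, 2 were members with 3 regions, none in all 8 lists. Airn starts in an intron of Igf2r, which it silences in cis, and its region covered the TSS with the summit 16 bp away. It was present in both libraries of 48 h and of 96 h and in none of 0 h or 72 h, with 4.27 and 5.09 at 0 h, 6.31 and 4.83 at 48 h, then 4.08 and 3.62 at 72 h, then 6.53 and 7.92 at 96 h (96 h 0.62, limma adjusted p = 0.874). Both 96 h libraries and 1 of the 48 h libraries were above both 0 h libraries. Kcnq1ot1, the antisense RNA of the Kcnq1 domain, stayed between 4.08 and 6.27 and was present in 4 libraries. H19, Meg3, Rian and Mirg had no region.

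Of 4 lncRNA genes next to liver transcription factor genes 3 were members, with 3 regions, none in all 8 lists. Hnf4aos, antisense to the hepatocyte factor gene Hnf4a, had 5.17 and 6.65 at 0 h, 3.38 and 6.48 at 48 h, later 5.66 and 6.01 at 72 h and lastly 6.07 and 6.63 at 96 h, present in 7 libraries. A region shared by Hnf1aos1 and Hnf1aos2 was present in 1. Developmental lncRNAs were members in 6 of 33 cases, with 7 regions, 2 of them in all 8 lists. Pantr2 had 11.7 and 9.44 at 0 h against 7.83 and 7.60 at 96 h, and the difference did not pass the test (limma adjusted p = 0.905). The log2 differences at 48 h and 96 h were 0.24 and 0.19 at Sox2ot, 0.11 and 0.54 at Rmst, and −0.07 and 0.27 at Tbx3os1, with SEs of 0.29, 0.36 and 0.32, and none passed. Hotair, Hottip and Fendrr had no region.

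Of 294 lncRNA genes named for the opposite strand of a coding gene, 48 were members, with 54 regions, 22 of them in all 8 lists. Hectd2os had 7.05 and 10.7 at 0 h, 4.58 and 3.73 at 48 h, then 6.85 and 10.9 at 72 h, then 6.74 and 6.48 at 96 h, with both 48 h libraries below all others (−1.07 ± 0.32, limma adjusted p = 0.3). The genes with no descriptive name made up 1390 member genes of 9303, with 1465 regions, of which 654 were in all 8 lists. Members with a descriptive symbol were present more often than all members in 7 of 8 libraries, by 3.65 points (exact permutation p = 0.0156, adjusted p = 0.0195). Of those with a descriptive symbol 31.1% were CpG-rich, against 16.7% of all members, and the part of this in the difference was not tested.

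Some lncRNA promoter regions also hold a tRNA gene, transcribed by RNA polymerase III. This was looked for after the sequences and values had been seen, so it is given as a description with no test. Of 403 tRNA genes in the RefSeq annotation, at least 1 overlapped 16 members (1.01%), compared with 25 single coding promoters (0.189%) and 189 of all regions (0.256%). Of the 16, 11 were in all 8 lists, and of the 14 with values 11 were higher in both 48 h libraries than in the mean of 0 h (78.6%), against 34.3% of the members without a tRNA gene. Their median log2 difference was 0.36 at 48 h, −0.01 at 72 h and −0.04 at 96 h. By library the medians were 0.22 and 0.40 at 48 h, later −0.04 and 0.19 at 72 h and lastly −0.09 and −0.08 at 96 h, so that both 48 h libraries were above the other 4. Over all 146 regions with a tRNA gene and a value, the members included, the median at 48 h was 0.29, and 100 were higher in both 48 h libraries (68.5%), against 33.4% of all regions tested.

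**Figure D4:**
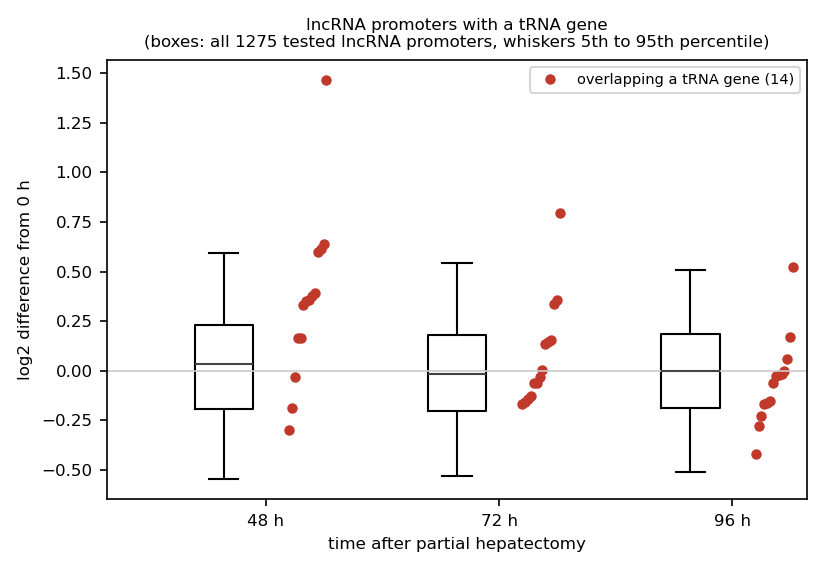
Log2 difference of normalized fold enrichment from 0 h (y axis) at each time after PHx (x axis) for the 14 lncRNA promoters that overlap a tRNA gene (points), beside boxes with the median and quartiles of all 1275 lncRNA promoters tested and whiskers at the 5th and 95th percentiles. At 48 h 11 of the 14 points are above 0, with a median of 0.36 against 0.03 over all.

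The Gm26654 region is one of these and holds a tRNA-Asn gene, part of which is in the window printed above. The 4930555B11Rik region holds tRNA-Ala and tRNA-Gly genes and had 12.3 and 14.3 at 0 h, 21.4 and 18.9 at 48 h, later 14.7 and 19.2 at 72 h and lastly 12.6 and 14.0 at 96 h (48 h 0.60 ± 0.19). A tRNA-Cys gene lies in the region of an antisense model with the symbol Trmt61b, the name of a gene that encodes a tRNA methyltransferase, with 5.96 and 7.76 at 0 h, 11.1 and 10.1 at 48 h, then 6.63 and 8.54 at 72 h, then 6.25 and 9.38 at 96 h. In all 3 both 48 h libraries were above both 0 h libraries. They had the smallest limma p at 48 h of the 14 with values, which favours this. Gm11290 with a tRNA-Val gene, C230035I16Rik with tRNA-Ala and Gm40190 with tRNA-Arg are others. The 3 members with a lower mean at 48 h were Gm46404 with a tRNA-Val gene (−0.30), Gm11205 with tRNA-Thr (−0.19) and Gm40190 (−0.03), and without the second 48 h library the median of the 14 was 0.23.

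Among the motif letters in the 200 bp window, the GC box GGGCGG was found in 20.01% of members and 16.6% of all regions, in 63.3% of CpG-rich and 11.3% of CpG-poor members, and in 55.5% of single coding promoters. CCGGAA, the core of ETS family sites, was found in 8.23% of members and 6.06% of all regions. The CCAAT box (CCAAT) stood at 23.1% and 25.02% and the TATA box (TATAAA) at 4.62% and 5.96%. For factors of the liver, the letters TTGCNNAA of C/EBP were found in 11.8% of members and 13.2% of all regions, TGTTTAC of forkhead factors in 4.5% and 4.87%, and AAAGTCCA of HNF4 in 2.28% and 2.5%. TGANTCA of AP-1 was found in 7.35% and 7.88%, CACGTG, the E-box, in 3.8% and 3.22%, and CNAGGNGGC of CTCF in 8.49% and 9.07%. The rarest were GCGCANGCG of NRF1, in 1.01% and 1.82%, and TGACGTCA of CREB, in 0.507% and 0.497%. Both strands were searched, and the letters CCAAT were in 21 of the 46 members lost at 48 h (45.7%) and 10 of the 36 gained (27.8%), which was seen in the data and not tested.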

How the data were processed

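ATAC-Seq was performed on hepatocyte nuclei at 4 times, with 2 libraries each. Per the study's methods, the authors used the ENCODE ATAC-Seq pipeline: Bowtie2 placed the trimmed reads on mm10, and MACS2 called peaks from the deduplicated alignments. The versions of both are not given in the sources used here. The names of the deposited lists show Tn5-shifted tags, a p threshold, a cap on how many were kept and removal of blacklisted peaks, and each library was called alone, without pooling. The deposited columns hold a display score, which was not used, the fold enrichment at the summit (a ratio to the local background), the −log10 p and the −log10 q of each interval, and the summit position. No read counts were used, so the depth is unknown, no counting interval can be given, and the count test of the study (TCseq) could not be run.

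Each list was collapsed to distinct intervals, the 50000 with the highest −log10 p were kept (ties in list order), and the kept intervals were merged. TSSs came from the GENCODE M21 basic annotation (9793 lncRNA genes with 11465 distinct TSSs, in 4 biotypes), sequences from GRCm38 and tRNA genes from the RefSeq annotation of that build. For signal, the fold enrichment of the strongest interval in a region was taken from the full lists, transformed to log2, quantile-normalized over regions with an interval in all 8 lists and fitted with limma 3.58.1 in R 4.3.3 on all 4 times, with Benjamini-Hochberg adjustment over all regions and a threshold of 0.05. Shares of regions were compared with two-sided exact permutation tests, over the 28 splits of 2 against 6 libraries (smallest p 0.0357) or over the sign patterns of 8 libraries (smallest p 0.00781), in Python 3.11.15. A promoter was CpG-rich when the 500 bp around its summit had a GC content of at least 50% and a CpG observed/expected ratio of at least 0.6, and motif letters were searched on both strands of the 200 bp around it. No 2 libraries had identical lists (0 pairs).

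The members and the gene lists were chosen with earlier results of these data known. Named are list members with a descriptive symbol. Values are given for at most 4 of a list, those with the smallest limma p over the 4 times, then those in the most libraries. Also named are the 5 gained and the 5 lost members at 48 h with the highest rank (the first 2 at 72 h and 96 h). The rule further names the 5 with the smallest limma p in each direction at 48 h and the 5 with the best worst rank. It adds up to 5 present at 0 h alone or after PHx alone. 1 member that this rule names among the gained is not reported here. Members with a tRNA gene were chosen after the data were seen. The procedures were tested on simulated data. Alternatives tried were all intervals or the 25000 strongest, a q filter, 50% coverage, a TSS distance of 500 bp or 2 kb, 1 TSS per gene, other values, normalization and filter in limma, a replicate block and the omission of each library.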

Additional observations from a re-analysis of the deposited data

How the results depend on the processing

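The share of members present was below that of single coding promoters under all settings tried (by 11.3 to 20.4 percentage points), and CpG-rich members exceeded CpG-poor members by 12.6 to 31.1 points. With all deposited intervals there were 4502 members, the share of members present after PHx minus 0 h became 5.63 points (exact permutation p = 0.25) and the same difference of the CpG gap −3.74 (exact permutation p = 0.0357), and 140 and 74 members were gained at 72 h and 96 h (2.81% and 1.56% of all regions). With the 25000 strongest there were 946 members, these differences were 0.18 and 0.51, and 31 members were lost at 72 h (3.33% of all regions). With 50% of the region covered, the CpG gap difference was 3.03 (exact permutation p = 0.25), 71 members were lost at 48 h and 47 gained at 72 h (5.02% and 4.02% of all regions). With a TSS distance of 2 kb, 70 were lost at 48 h and 43 gained at 72 h (3.496% and 2.88% of all regions). With 1 TSS per gene the CpG gap difference was 4.10 (exact permutation p = 0.0714). The causes were not tested. Leaving out each library in turn gave 4.58 to 6.22 for the CpG gap difference, whose smallest possible p then exceeds 0.05 when a 0 h library is left out, 35 to 99 members gained and 46 to 130 lost at 48 h, 28 to 101 and 47 to 127 at 72 h, and 29 to 96 and 39 to 109 at 96 h, beside up to 8.11% and 8.86% of all regions at 48 h, then 7.87% and 8.14% at 72 h, then 7.89% and 7.49% at 96 h, since 1 library fewer makes the rule easier to meet. With the −log10 p in place of fold enrichment, limma called 1 member at 48 h (Gm26654, log2 difference 2.93, adjusted p = 0.0177) of 21 regions in all and 1 of 2 at 72 h, and the median of members with a tRNA gene was 0.59. No other limma setting called a member. With the replicate number as a replicate block, limma called 0 members. At an unadjusted p under 0.05 there were then 109, 90 and 69 members (8.55%, 7.06% and 5.41%) at 48 h, 72 h and 96 h, against 10.4%, 6.46% and 5.79% of all regions. The deviations of same-numbered libraries had correlations from −0.0561 to 0.128. The labels do not say whether the numbers pair libraries, and they were not treated as pairs. The CpG gap and tRNA comparisons and their alternatives were chosen after seeing the data.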
